A study of Mus musculus with 12 samples.

Results

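The chromatin described here is a 709 kb stretch of mouse chromosome 9 that holds Barx2, Arhgap32, Kcnj5 and Kcnj1 and lies on the lower-coordinate side of the Ets1 promoter. Its contacts with that promoter were read from a 4C-seq table of 10 kb windows stepping by 1 kb. The members are the windows of the Ets1 promoter table that start between 31703001 and 32402001 (mm10), a choice made by position alone. Their centres lie 296 to 995 kb from the viewpoint, placed at the window of highest mean value, 32698001 to 32708000. Of 700 possible windows, 547 are listed. The whole Ets1 promoter table lists 8207 windows and the tables of the 3 viewpoints of the series list 17305. A window is listed only with counts in at least 3 of 4 libraries, so a window contacted in embryonic stem (ES) cells and at 0 in both fibroblast libraries is not among the members.

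The series holds 12 4C-seq libraries, 4 for each viewpoint, and the 4 of the Ets1 promoter are used here. In 4C-seq, formaldehyde-fixed chromatin is cut and religated, and fragments joined to 1 chosen site are amplified and sequenced. The ES group was 2 libraries of V6.5, an established mouse ES cell line, cultured in 2i. The second group was 2 libraries of mouse embryonic fibroblasts (MEFs) from rtTA3-OKSM embryos at E13.5, cultured in DMEM. The MEFs were heterozygous for the OKSM cassette of reprogramming factors, for rtTA3, its doxycycline-dependent activator, and for an Oct4-GFP reporter. The labels name no doxycycline treatment for them. The series' design text names the transactivator of the study's MEFs as M2rtTA at Rosa26, with OKSM at Col1a1. All 4 libraries were fixed in 1% formaldehyde. Neither the MEFs' strain nor the number of embryos behind a library is given, and nothing in the labels says that the 2 libraries of a group came from separate cultures, so the p-values reflect how these particular libraries vary, and that variation may be technical. Contact counts carry no expression markers, so the labelled cell types could not be checked against marker genes. The question was which contacts of the Ets1 promoter on this side differ between ES cells and MEFs.

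Ets1 encodes a transcription factor of the ETS family. A promoter meets distant chromatin by folding of the fibre, contact frequency falls with distance, and cell types can differ in which distant genes share a neighbourhood with a promoter. Kcnj1 encodes ROMK, an inwardly rectifying potassium channel of the kidney, and Kcnj5 encodes a G-protein-gated potassium channel subunit of the heart and adrenal gland. Barx2 encodes a homeobox transcription factor.

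The upstream sequences of 5 transcription starts are shown, picked after the contact values had been seen. ES libraries lay above MEF libraries at the innermost Arhgap32 start, the Kcnj5 start and the inner Gm31755 start. The libraries overlapped at the second Arhgap32 start and the Kcnj1 start. Confidence intervals of the log2 difference, ES minus MEF, overlapped between the innermost (0.22 to 1.48) and second (-0.52 to 0.70) Arhgap32 starts. They also overlapped between the Kcnj5 (0.25 to 1.61) and Kcnj1 (-0.59 to 0.77) starts. A difference between these starts is therefore not shown by which of them were called. Each sequence is the 250 bases before the start from the RefSeq promoter table (GRCm38.p6, the assembly mm10 names), written 5′ to 3′ on the gene's strand. Capitals mark GATC, the DpnII site at which contacts are cut, and CACCC or its reverse complement GGGTG, core letters of the motif bound by KLF-family factors, which the study concerns.
Arhgap32 chr9:32032053-32032302, plus strand, before the start at 32032303: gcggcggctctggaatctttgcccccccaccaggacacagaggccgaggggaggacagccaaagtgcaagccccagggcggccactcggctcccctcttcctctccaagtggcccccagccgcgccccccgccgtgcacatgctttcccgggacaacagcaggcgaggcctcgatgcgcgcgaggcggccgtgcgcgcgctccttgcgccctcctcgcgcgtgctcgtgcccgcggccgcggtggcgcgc
Arhgap32 chr9:32224025-32224274, plus strand, before the start at 32224275: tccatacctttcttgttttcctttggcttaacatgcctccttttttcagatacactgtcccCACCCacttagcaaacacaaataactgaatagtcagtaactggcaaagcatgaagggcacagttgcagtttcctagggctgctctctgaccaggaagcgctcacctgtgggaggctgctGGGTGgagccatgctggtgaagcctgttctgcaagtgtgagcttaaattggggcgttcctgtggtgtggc
Kcnj5 chr9:32344345-32344594, minus strand, before the start at 32344344: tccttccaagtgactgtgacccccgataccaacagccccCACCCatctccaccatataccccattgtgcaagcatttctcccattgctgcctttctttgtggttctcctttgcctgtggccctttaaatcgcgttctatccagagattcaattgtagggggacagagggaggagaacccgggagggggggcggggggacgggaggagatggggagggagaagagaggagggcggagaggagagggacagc
Gm31755 chr9:32375403-32375652, minus strand, before the start at 32375402: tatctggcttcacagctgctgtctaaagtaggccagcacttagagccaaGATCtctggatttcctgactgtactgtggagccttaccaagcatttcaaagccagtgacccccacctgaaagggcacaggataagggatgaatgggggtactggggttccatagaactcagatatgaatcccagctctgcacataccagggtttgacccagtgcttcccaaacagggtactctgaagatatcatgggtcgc
Kcnj1 chr9:32393735-32393984, plus strand, before the start at 32393985: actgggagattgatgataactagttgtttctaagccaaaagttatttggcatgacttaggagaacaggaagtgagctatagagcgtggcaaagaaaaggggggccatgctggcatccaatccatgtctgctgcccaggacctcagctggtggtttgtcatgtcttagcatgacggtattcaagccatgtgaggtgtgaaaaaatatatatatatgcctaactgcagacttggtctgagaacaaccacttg

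CACCC on either strand was found upstream of the innermost Arhgap32 start, once on each strand, and upstream of Kcnj5, and not in the other 3 windows shown. Across all 32851 promoter sequences of the table, 52.0% held CACCC on either strand within the 250 bases, as did 3 of the 10 in the interval. GATC, which reads the same on both strands, was in 41.9% of all and in 5 of these 10, and GTAC, the Csp6I site also used here, in 31.5% of all and in 2 of the 10. Of the 12 genes that overlap the interval, 6 matched the promoter table, among them 3 of the 4 protein-coding genes, and Barx2 had no entry there. These matches describe the letters of these windows only.

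Values are counts per 1000 of a library's total. The totals were 70629 counts in ES replicate 1, 206874 in ES replicate 2, 13629 in MEF replicate 1 and 29638 in MEF replicate 2. A single count is thus worth between 0.00483 (ES replicate 2) and 0.0734 (MEF replicate 1), so low values in the MEF libraries rest on few counts. Listed windows held 61.7% to 63.5% of the total in the ES libraries and 73.2% to 74.3% in the MEF libraries. Across the 547 members, which overlap and are not independent, Pearson's r of log2 values was 0.81 between the ES libraries and 0.42 between the MEF libraries. All 547 members had counts in both ES libraries, while 144 were at 0 in MEF replicate 1 and 76 in MEF replicate 2.

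As a whole, the interval took a larger part of the Ets1 promoter's contacts in ES cells than in MEFs. Summed over 55 listed windows that do not overlap, the members held 6.33% of all counts in ES replicate 1 (95% Wilson interval 6.15 to 6.51), 6.18% in ES replicate 2 (6.08 to 6.29), 2.78% in MEF replicate 1 (2.52 to 3.07) and 2.00% in MEF replicate 2 (1.85 to 2.17). The intervals cover counting error only, since amplified reads without molecular identifiers are not independent molecules. Both ES libraries lay above both MEF libraries, at 6.25% ± 0.10 against 2.39% ± 0.55 (SD, n = 2 each), a 2.62-fold difference. The exact permutation test over the 4 libraries gave p = 0.333 (two-sided), the smallest it can give with 2 libraries against 2. Within 50 kb of the viewpoint the order was the other way, with 20.6% of counts in ES cells and 25.4% in MEFs, and without those windows the share of the interval differed 2.47-fold.

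The interval was then set against other stretches within each library. The mean over the members was 1.18 and 1.15 counts per 1000 in the ES libraries and 0.505 and 0.408 in the MEF libraries. In the interval at the same distances toward higher coordinates, with 644 listed windows, it was 0.831 and 0.859 in the ES libraries and 1.29 and 1.20 in the MEF libraries. Each ES library therefore had more contact on the side of Kcnj1, and each MEF library on the opposite side. The log2 ratio of the members over the mirrored interval was 0.51 and 0.42 in the ES libraries and -1.35 and -1.56 in the MEF libraries, a difference of 1.92 that does not depend on how a library is scaled. Against the windows between the viewpoint and the interval, the log2 ratio was -2.51 and -2.52 in the ES libraries and -4.02 and -4.22 in the MEF libraries, a difference of 1.60. ES and MEF libraries did not overlap in either ratio (exact permutation test, two-sided, p = 0.333 for both, the smallest possible).

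**Figure D1:**
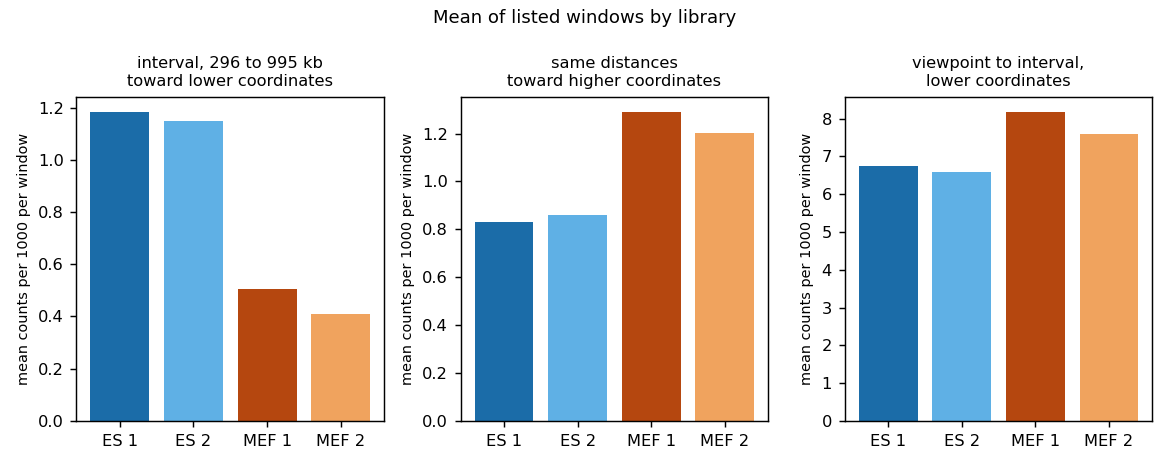
Mean counts per 1000 of the library total over the listed windows (vertical axes, which differ in scale between panels) of the 2 ES and 2 MEF libraries (1 bar per library) in the interval, in the mirrored interval at the same distances toward higher coordinates, and between the viewpoint and the interval. The ES libraries (1.18 and 1.15) are above the MEF libraries (0.505 and 0.408) in the left panel only.

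By window, contact was higher in ES cells over most of the interval and called in MEFs nowhere. Both ES libraries exceeded both MEF libraries in 369 of the 547 members (67.5%), against 22.2% of all listed windows of the table, and both MEF libraries exceeded both ES libraries in 7 members (1.28%), against 16.9% of all. In the other 171 members the groups overlapped. The median of the members' group means was 0.896 counts per 1000 for ES cells and 0.330 for MEFs.

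Windows were tested where their mean over the 4 libraries reached 0.5 counts per 1000, with limma on log2(value + 1) and Benjamini-Hochberg adjustment over all tested windows of the table. Of the 335 members tested, 129 were higher in ES cells, where 9.80% of all tested windows were called in that direction. None was higher in MEFs, where 15.2% of all tested windows were called that way, and none of the members had an unadjusted p under 0.05 in that direction with limma (0) or with edgeR's quasi-likelihood test on the recovered counts (0). edgeR called 90 members higher in ES cells, all 90 among limma's 129. Its share over all tested windows is not given here, so the 90 describes the members only. The median log2 difference, ES minus MEF, was 0.71 over the tested members and -0.09 over all tested windows.

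The filter let in 159 of the 335 tested members through the ES libraries, since their MEF mean was under 0.5, so the count of 129 is a description of those tested. In the fit without a filter, which all 547 members enter, 90 (16.5%) were higher in ES cells against 1.27% of the 8207 windows. There 510 of the 547 members had a difference above 0, with a median of 0.54 against 0.01 over all windows. Among the 169 tested members with means of at least 0.5 in both groups, 65 were called higher in ES cells. The share of all windows under that condition is not given here, so this count describes these members only.

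With 1 ES library left out, the ES group is a single library, assumed to vary like the 2 MEF libraries that then supply the spread. All counts with a library left out, here and below, are of members, without the share over all windows. Without ES replicate 1 limma called 0 of 353 members, with 68 at an unadjusted p under 0.05, and edgeR called 10. Without ES replicate 2 limma called 0 of 334, with 66 at an unadjusted p under 0.05, and edgeR called 11. The direction stayed above 0 in all 129 called windows without ES replicate 1, and without ES replicate 2 in the 128 of them that were tested. The size of the difference was kept as well, with a median log2 difference over these windows of 0.99 with all libraries, 1.02 without ES replicate 1 and 1.05 without ES replicate 2, while the median SE went from 0.28 to 0.51 and 0.53. Without MEF replicate 1 the count was 184 and without MEF replicate 2 it was 173.

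**Figure D2:**
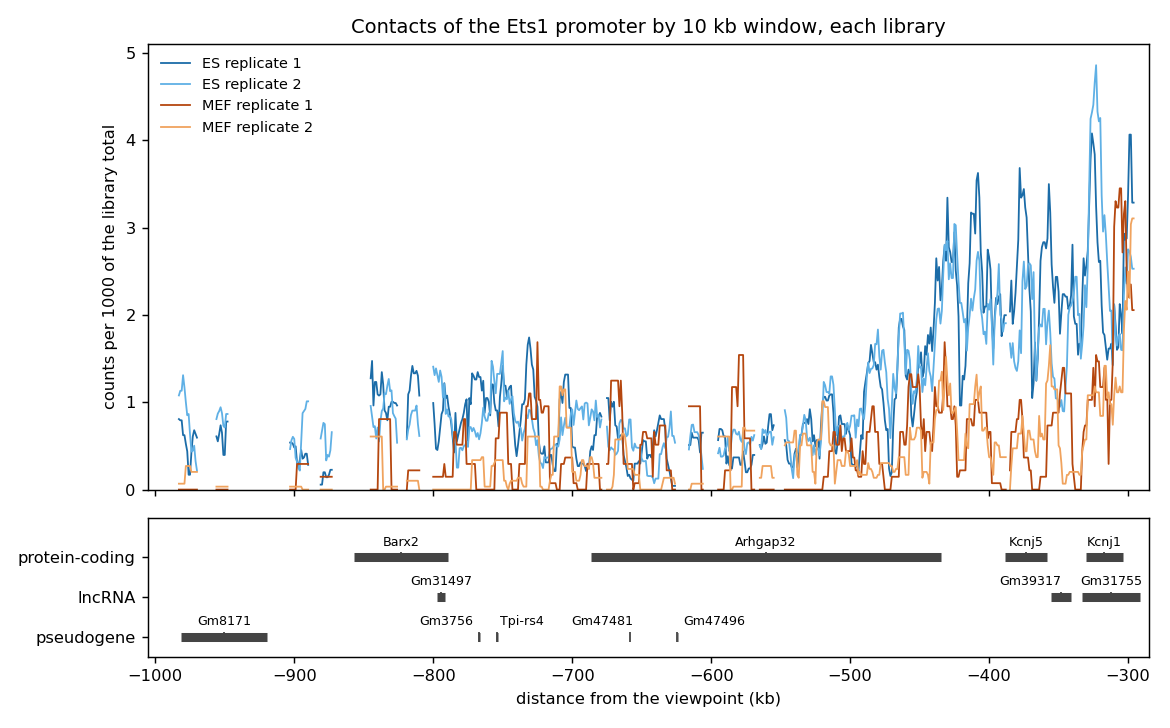
Counts per 1000 of the library total (vertical axis) in each listed window against its distance from the viewpoint in kb (horizontal axis), 1 line per library, with breaks where windows are not listed. Bars below mark the genes of the interval by class, and the 2 ES lines rise above the 2 MEF lines from about the end of Arhgap32 to Kcnj1.

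Called windows no more than 20 kb apart formed 3 regions, all higher in ES cells. The main one, 32216001 to 32394000, is 178 kb long, with 120 of its 167 listed windows called, and it runs from the last part of Arhgap32 across Kcnj5 into Kcnj1. Its mean was 2.11 and 1.99 counts per 1000 in the ES libraries and 0.641 and 0.615 in the MEF libraries. The window of smallest p, 32323001 to 32333000 within the body of Kcnj5, held 3.44 and 2.61 in the ES libraries (243 and 540 counts) and 0.367 and 0.641 in the MEF libraries (5 and 19 counts). The ES libraries lay well above the MEF libraries there, at 3.03 ± 0.59 against 0.504 ± 0.19 (SD, n = 2 each), 6.00-fold apart (log2 difference 1.42, 95% interval 0.89 to 1.95, SE 0.26, limma adjusted p = 0.000294). With ES replicate 1 left out the log2 difference there was 1.27 and limma's call was lost (adjusted p = 0.160). With ES replicate 2 left out it was 1.57 (adjusted p = 0.0521 by limma, 0.00973 by edgeR).

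The highest ES mean of a window was in the same region, at the lower-coordinate end of Kcnj1. Window 32374001 to 32384000, which overlaps Kcnj1 and the antisense-strand lncRNA gene Gm31755, held 3.84 and 4.66 counts per 1000 in the ES libraries and 0.954 and 1.18 in the MEF libraries. The groups did not overlap, at 4.25 ± 0.58 against 1.07 ± 0.16 (SD, n = 2 each), 3.98-fold apart (log2 difference 1.34 with an SE of 0.26, adjusted p = 0.000324 by limma). A further ES maximum lay between genes, at 32290001 to 32300000 between Arhgap32 and Kcnj5. It held 3.62 and 2.72 in the ES libraries against 1.03 and 1.01 in the MEF libraries, a 3.11-fold difference (log2 difference 1.04, limma adjusted p = 0.00291). High contact in ES cells was not limited to gene bodies.

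The other regions were shorter and farther away, and their MEF values rested on few counts. The first, 31868001 to 31916000, spans 48 kb over Barx2 and the lncRNA gene Gm31497, with 6 of its 24 listed windows called. Its window of smallest p, 31898001 to 31908000, held 0.991 and 1.41 in the ES libraries (70 and 291 counts), and 0.147 in MEF replicate 1 and 0 in MEF replicate 2 (2 and 0 counts). On the log2 scale ES cells were higher by 1.03, with an SE of 0.35 and an adjusted p of 0.0259 from limma, and the call ended with a pseudocount of 0.25 (adjusted p = 0.0631), with quantile normalization (0.079), after thinning all libraries to the shallowest (0.0668) and without either ES library (0.328 and 0.516, with log2 differences of 1.17 and 0.89).

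The second of these, 31940001 to 31962000, spans 22 kb around the pseudogene Tpi-rs4, with 3 of its 13 listed windows called. Its window of smallest p, 31940001 to 31950000, held 1.20 and 1.47 in the ES libraries (85 and 305 counts), 0 in MEF replicate 1 and 0.270 in MEF replicate 2 (8 counts). On the log2 scale ES cells were higher by 1.05, with an SE of 0.33 and an adjusted p of 0.0155 from limma. This call ended with quantile normalization (adjusted p = 0.0673), with edgeR (0.0529), after thinning (0.103) and without either ES library (0.331 and 0.475, with log2 differences of 1.13 and 0.97).

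**Figure D3:**
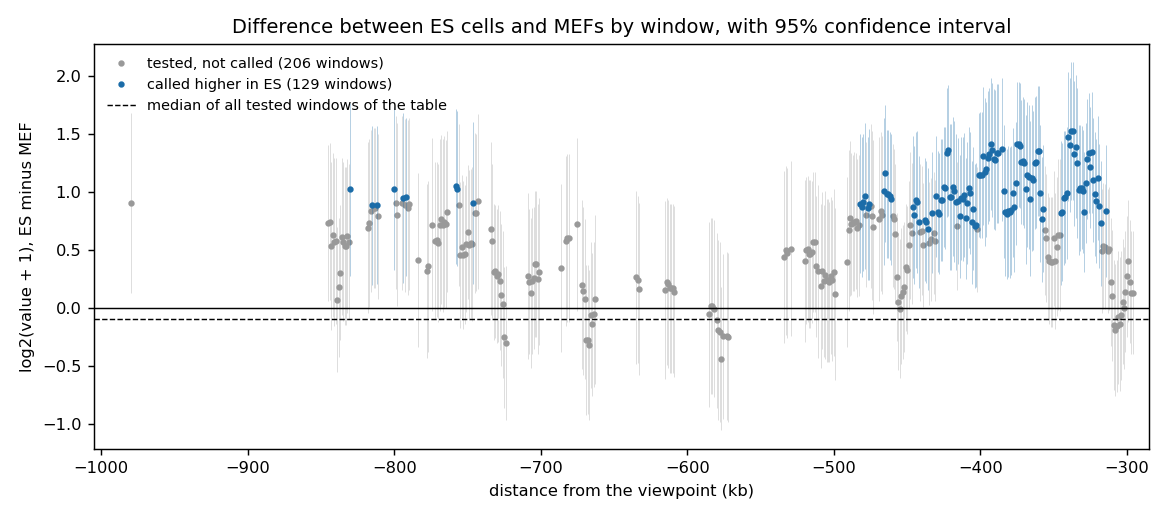
Difference between ES cells and MEFs in log2(value + 1) (vertical axis) for the 335 tested members against distance from the viewpoint in kb (horizontal axis), with 95% confidence intervals as vertical lines and the median of all tested windows of the table as a dashed line. The 129 called windows are all above 0, and most lie between the end of Arhgap32 and Kcnj1.

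Contact did not fall evenly with distance in ES cells. In 7 tiles of 100 kb, numbered from the far edge toward the viewpoint, both ES libraries were above both MEF libraries in each tile. Of these, 4 reached a mean of 0.5 and were tested, and all 4 were higher in ES cells, where 40.0% of the 15 tested tiles of the chromosome were called that way and 53.3% in the MEF direction. Tiles 2 and 3, with MEF means of 0.198 and 0.321, passed the filter through the ES libraries, so the count of 4 describes those tested. Without a filter 5 of the 7 were called, against 1.61% of all tiles. The nearest tile, which holds Kcnj5 and Kcnj1, had 2.41 and 2.18 counts per 1000 in the ES libraries and 0.973 and 0.841 in the MEF libraries. The next, over the end of Arhgap32 and the gap to Kcnj5, had 1.74 and 1.71 in the ES libraries and 0.639 and 0.535 in the MEF libraries. Both tiles were higher in ES cells, 2.53-fold and 2.94-fold (log2 differences 0.79 and 0.78, limma adjusted p = 2.4e-08 for both). The spread used by limma is shared across the 15 tested tiles, so such small p-values do not rest on the libraries of a tile alone. With replicate number added to the model as a block, limma's adjusted p was 0.00883 for both.

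Tiles 5 and 4, over the long body of Arhgap32, were lower in ES cells than their neighbours on both sides. Tile 5 held 0.562 and 0.638 in the ES libraries and 0.292 and 0.433 in the MEF libraries, and tile 4 held 0.504 and 0.576 against 0.483 and 0.166. Neither reached a mean of 0.5, so neither was tested. Farther out, ES values were higher than over tiles 4 and 5, with 0.898 and 0.767 against 0.389 and 0.253 in tile 3. Tile 2 held 0.805 and 0.849 against 0.261 and 0.134. Tile values are means of listed windows, of which tile 5 has 90, tile 4 has 78, tile 3 has 100 and tile 2 has 50. The higher ES mean of tile 2 thus leaves out its unlisted windows. With unlisted windows counted as 0, 3 tiles were called, and tile 2 fell under the mean of 0.5 and was not tested.

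Tile 3, between Barx2 and Arhgap32, was 2.59-fold higher in ES cells (log2 difference 0.47, limma adjusted p = 2.2e-05), and tile 2, over most of Barx2, was 4.18-fold higher (0.61, adjusted p = 4.1e-07). With the replicate block limma's adjusted p was 0.0101 for tile 3 and 0.0150 for tile 2. Quantile normalization took away the calls of tile 2 (adjusted p = 0.282) and tile 3 (0.890). The farthest tile held 0.546 and 0.710 in the ES libraries against 0.0284 and 0.0969 in the MEF libraries, with 31 of its 100 windows listed, and was not tested.

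By gene, the interval overlaps 12 annotated genes, 4 protein-coding, 3 lncRNA and 5 pseudogenes, each measured as the mean of listed windows over the gene with 10 kb on each side. All 9 loci with a mean of at least 0.5 were higher in ES cells, where 52.2% of the 23 tested loci of the chromosome were called in that direction and 30.4% in the MEF direction. Barx2, Gm31497, Gm3756, Tpi-rs4 and Arhgap32 had MEF means under 0.5 (0.218, 0.161, 0.223, 0.226 and 0.406). They passed the filter through the ES libraries, so the count of 9 describes those tested. None of the 9 was higher in MEFs by limma (0 at an unadjusted p under 0.05) or by edgeR (0). The median log2 difference was 0.65 over the 9 loci and 0.27 over all 23. Neighbouring loci share windows (Kcnj1 with Gm31755, Kcnj5 with Gm39317, Barx2 with Gm31497, and Gm3756 with Tpi-rs4), so the 9 are not independent. Without a filter 9 of the 12 were called, Arhgap32 not among them, against 1.64% of 670 loci.

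Of the potassium channel genes, Kcnj5 (gene ID 16521, 32314706 to 32344380) showed the larger difference. Its locus held 2.35 and 1.77 counts per 1000 in the ES libraries and 0.497 and 0.586 in the MEF libraries. Every ES value lay above every MEF value, 3.80-fold on average (log2 difference 0.98, 95% interval 0.70 to 1.26, SE 0.11, limma adjusted p = 0.00131). All 38 listed windows over the gene body had both ES libraries above both MEF libraries, and 35 of the 38 were called. The Kcnj5 call was kept under each alternative in which the locus was tested.

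Kcnj1 (gene ID 56379, 32372418 to 32399197), the protein-coding gene of the interval nearest the viewpoint, held 2.48 and 2.54 in the ES libraries and 1.42 and 1.32 in the MEF libraries. The libraries of a group were close to each other and the groups did not overlap, 1.83-fold apart (log2 difference 0.57 with an SE of 0.07, adjusted p = 0.00131 by limma). Of the 37 listed windows over its body, 19 were called. The call ended when only the higher-coordinate gene end was read (adjusted p = 0.11). It was kept at the lower-coordinate gene end (log2 difference 1.07, limma adjusted p = 0.000426). The tabled Kcnj1 start lies inside the gene, not at that end. The step from Kcnj1 to Kcnj5 was larger in the MEF libraries. The log2 ratio of the Kcnj5 over the Kcnj1 locus was -0.08 and -0.52 in the ES libraries and -1.52 and -1.17 in the MEF libraries, a difference of 1.04 with no overlap (exact permutation test, two-sided, p = 0.333, the smallest possible).

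Arhgap32 (gene ID 330914, 32016625 to 32268443) was uneven along its length. Its locus held 0.834 and 0.919 in the ES libraries and 0.452 and 0.360 in the MEF libraries, a 2.16-fold difference without overlap (log2 difference 0.42, SE 0.08, limma adjusted p = 0.00564). Before the innermost of its 3 tabled starts, windows held 0.604 and 0.655 in the ES libraries and 0.407 and 0.300 in the MEF libraries, and 4 of the 74 tested there were called. From that start to the gene's end they held 1.37 and 1.43 in the ES libraries and 0.624 and 0.442 in the MEF libraries, with 16 of 41 tested windows called. The difference was thus 1.78-fold in the longer first part and 2.63-fold in the short last part, which lies next to the main region. The locus lost its call without a filter (adjusted p = 0.204), over the gene body alone (0.0612) and under 2 other scalings, median centring (0.26) and quantile normalization (0.385).

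Barx2 (gene ID 12023, 31846044 to 31913285), the protein-coding gene farthest from the viewpoint in the interval, held 0.959 and 0.841 in the ES libraries and 0.316 and 0.119 in the MEF libraries. The ES libraries lay above the MEF libraries by 4.14-fold (log2 difference 0.65, SE 0.10, limma adjusted p = 0.00369), and both were above both MEF libraries in 41 of the 46 listed windows over its body. Median centring took away the Barx2 call (adjusted p = 0.0774). At 789.7 kb from the viewpoint, the ES values of Barx2 covered much the same range as those of the whole Arhgap32 locus, which ends 434.6 kb away. Both are means of listed windows only, and listing differed. Of windows centred within Barx2, 41 of 67 possible ones are listed. Within Arhgap32 it was 176 of 208 before the innermost start and 44 of 44 from there on. The 2 loci are therefore not compared over all their windows.

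The noncoding loci share windows with their coding neighbours or lie close to them. Gm39317, an lncRNA gene next to the Kcnj5 start, held 2.28 and 1.85 in the ES libraries and 0.569 and 0.600 in the MEF libraries (3.54-fold, limma adjusted p = 0.00117). Gm31755, an lncRNA gene across Kcnj1, held 2.42 and 2.53 against 1.45 and 1.38 (1.75-fold, adjusted p = 0.00132), which did not pass after median centring (0.0586), after quantile normalization (0.385) or at the higher-coordinate gene end alone (0.108). Neither pair overlapped.

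Near Barx2, Gm31497 held 0.834 and 0.844 against 0.315 and 0.00750 (limma adjusted p = 0.00809), Gm3756 1.02 and 0.797 against 0.270 and 0.176 (adjusted p = 0.00261) and Tpi-rs4 1.03 and 1.00 against 0.256 and 0.196 (adjusted p = 0.00117). After median centring, Gm31497 (adjusted p = 0.116) and Gm3756 (0.0633) no longer passed. The pseudogenes within Arhgap32, Gm47481 (0.468 and 0.495 against 0.611 and 0.243) and Gm47496 (0.505 and 0.558 against 0.600 and 0.0736), had overlapping groups and were not tested. Gm8171, near the far edge, held 0.584 and 0.811 in the ES libraries, 0 in MEF replicate 1 and 0.119 in MEF replicate 2, and was not tested either.

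**Figure D4:**
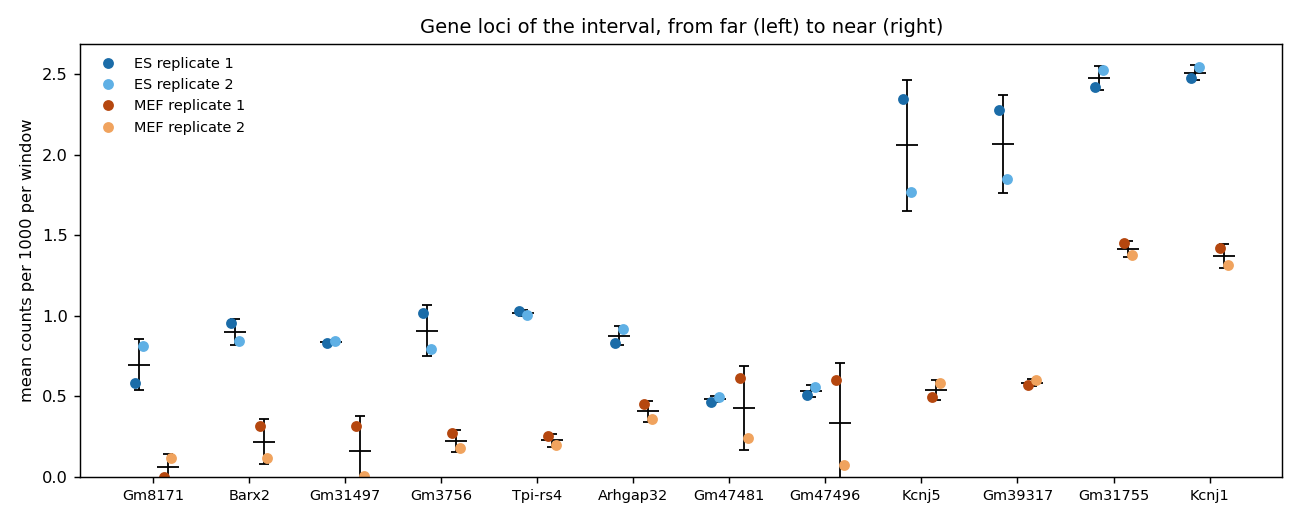
Mean counts per 1000 per window (vertical axis) over each of the 12 gene loci of the interval (horizontal axis, far from the viewpoint at left, near at right), with 1 point per library and the group mean ± SD (n = 2) in black. ES points lie above MEF points at 10 loci and overlap them at Gm47481 and Gm47496.

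At the transcription starts, whether the ES and MEF libraries overlapped varied between starts of Arhgap32 and between starts of Gm31755. Each start was read as the mean of the windows that contain it, a reading added after the values had been seen. Of 10 tabled starts in the interval, 9 reached the mean of 0.5 and 4 were called, each of them higher in ES cells, where 25.0% of the 20 tested starts of the chromosome were called in either direction. Among the 4, the Gm31497 start (MEF mean 0.073) and the innermost Arhgap32 start (0.311) passed the filter through the ES libraries. The count of 4 therefore describes those tested, and starts were not fitted without the filter. Without either ES library 0 of them were called, without MEF replicate 1 it was 3 and without MEF replicate 2 it was 7.

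The innermost Arhgap32 start, at 32224275 and with CACCC letters on both strands of its upstream sequence, held 1.18 and 1.55 counts per 1000 in the ES libraries and 0.396 and 0.226 in the MEF libraries. The ES libraries were clearly the higher ones, by 4.38-fold (log2 difference 0.85, SE 0.31, limma adjusted p = 0.0378). At the second start, 32032303, the ES libraries held 0.850 and 0.508 and the MEF libraries 0.969 and 0.25, so that the groups overlapped, with a log2 difference of 0.09 (95% interval -0.52 to 0.70, adjusted p = 0.867). The outermost start, 32016625, held 0.450 and 0.898 against 0.235 and 0.25 and was not tested. Within each library, the log2 ratio of the innermost over the second start was 0.47 and 1.61 for the ES libraries against -1.29 and -0.14 for the MEF libraries, without overlap (exact permutation test, two-sided, p = 0.333, the smallest possible).

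The Kcnj5 start, at 32344344 on the minus strand, held 2.83 and 1.81 in the ES libraries and 0.455 and 1.03 in the MEF libraries, 3.12-fold apart without overlap (log2 difference 0.93, SE 0.34, limma adjusted p = 0.0378). The Gm39317 starts close by, at 32347473 and 32349675, held 2.70 and 1.56 against 0.675 and 1.19, and 2.55 and 1.38 against 0.844 and 1.11. The ES libraries were the higher ones at both, but the calls did not pass (adjusted p = 0.138 and 0.258). The Gm31497 start near Barx2, at 31905987, held 0.711 and 1.29 in the ES libraries, 0.147 in MEF replicate 1 and 0 in MEF replicate 2 (log2 difference 0.89, adjusted p = 0.0262).

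Around Kcnj1 the ES-higher stretch ended within the gene. The inner start of Gm31755, at 32375402, held 3.25 and 3.48 in the ES libraries and 1.01 and 0.935 in the MEF libraries. These groups were far apart, by 3.46-fold (log2 difference 1.15, SE 0.33, limma adjusted p = 0.0141). At the tabled Kcnj1 start, 32393985, which is 309 kb from the viewpoint, the ES libraries held 1.77 and 1.85, MEF replicate 1 held 2.35 and MEF replicate 2 held 1.07.

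MEF replicate 1 was the highest and MEF replicate 2 the lowest of the 4 libraries at that start, with a log2 difference of 0.09 (95% interval -0.59 to 0.77, limma adjusted p = 0.867). The log2 ratio of the inner Gm31755 start over the Kcnj1 start was 0.88 and 0.91 in the ES libraries and -1.21 and -0.19 in the MEF libraries, without overlap (exact permutation test, two-sided, p = 0.333, the smallest possible). The outer Gm31755 start, at 32411753, held 2.64 and 2.39 against 1.28 and 3.04, also overlapping (adjusted p = 0.744).

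**Figure D5:**
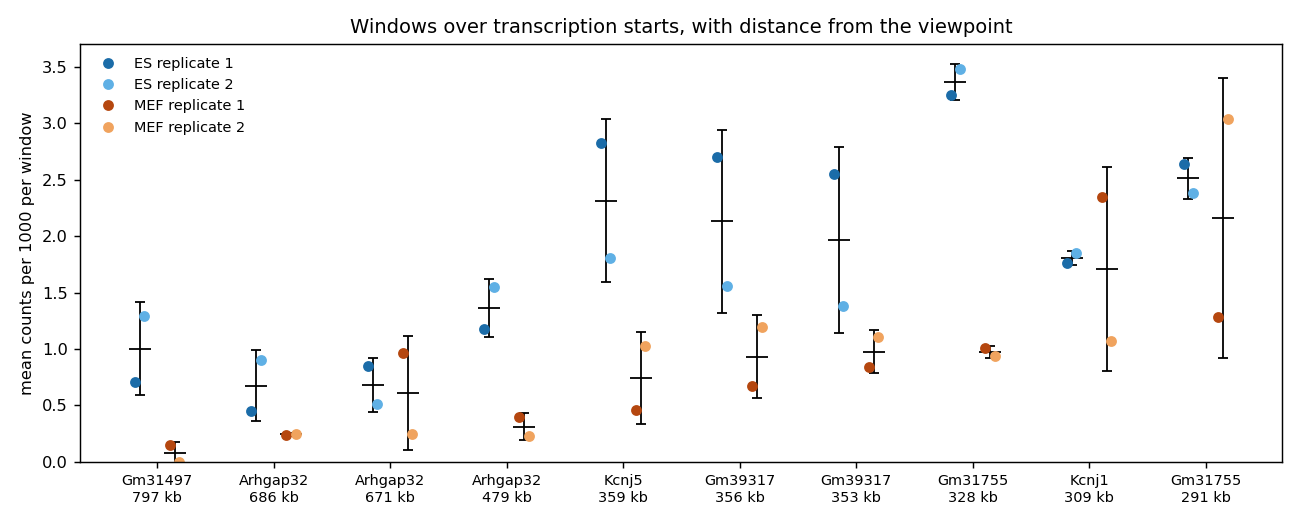
Mean counts per 1000 over the windows that contain each of the 10 tabled transcription starts (vertical axis), ordered from far to near with the distance from the viewpoint under each name (horizontal axis), 1 point per library and the group mean ± SD (n = 2) in black. The groups are far apart at the inner Gm31755 start and overlap at the second Arhgap32 start, the Kcnj1 start and the outer Gm31755 start.

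Along the genes, the window calls changed from one stretch to the next. Between Arhgap32 and Kcnj5, 41 of 46 tested windows were called, with 2.37 and 2.21 counts per 1000 in the ES libraries and 0.611 and 0.736 in the MEF libraries (3.40-fold). Centred within Kcnj5, 28 of 28 were called, with 2.42 and 1.92 against 0.356 and 0.554 (4.76-fold). Between Kcnj5 and Kcnj1, 17 of 28 were called, with 2.27 and 1.65 against 0.723 and 0.543 (3.09-fold).

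Within Kcnj1 before its tabled start, 14 of 21 windows were called, with 2.51 and 3.25 in the ES libraries and 1.22 and 1.04 in the MEF libraries (2.56-fold). From that start to the last member, 0 of 14 were called by limma, with 2.70 and 2.18 in the ES libraries and 2.81 and 1.92 in the MEF libraries. The groups overlapped there, their means were 1.03-fold apart, and the MEF mean was higher than in any other stretch between these gene boundaries. The highest MEF window of the interval, 32396001 to 32406000, lies there, with 2.86 and 2.54 in the ES libraries and 3.30 and 2.16 in the MEF libraries, an overlap of the groups (log2 difference 0.00, 95% interval -0.52 to 0.53, limma adjusted p = 0.993).

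MEF contact had 7 local maxima in the interval. At 3 of them, at 32186001, 32267001 and 32342001, both ES libraries were still above both MEF libraries, at 3 the groups overlapped, and at 1 both MEF libraries were the higher ones. The MEF maximum at the end of Arhgap32, 32267001 to 32277000, held 2.62 and 2.74 in the ES libraries against 1.39 and 1.52 in the MEF libraries. Window 32121001 to 32131000 within Arhgap32 held 0.439 and 0.657 in the ES libraries, 1.54 in MEF replicate 1 and 0.709 in MEF replicate 2. Both MEF libraries were the higher ones only there among these maxima, and the difference did not pass (limma adjusted p = 0.307). Window 31973001 to 31983000, between Barx2 and Arhgap32, held 0.949 and 0.566 in the ES libraries against 1.69 and 0.607 in the MEF libraries, and the groups overlapped. Without MEF replicate 2, 16 members were called higher in MEFs, 5 between 31973001 and 31991000, 1 at 32031001, 5 between 32113001 and 32131000 and 5 between 32389001 and 32403000. In all 16, MEF replicate 1 lay above both ES libraries.

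The ends of the interval did not coincide with a change in contact. The member nearest the viewpoint, starting at 32402001, held 3.28 and 2.53 counts per 1000 in the ES libraries and 2.05 and 3.10 in the MEF libraries, and the next window outside held 3.78 and 2.91 against 2.05 and 3.95. The groups overlapped in both (limma adjusted p = 0.729 and 0.70). At the far end, the first listed member, starting at 31715001, held 0.807 and 1.08 in the ES libraries against 0 and 0.0675 in the MEF libraries, and the nearest listed window outside held 0.835 and 0.802 against 0 and 0.472. The ES libraries were above the MEF libraries on both sides of that edge.

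Of 8 genes listed as neighbours on this side, Nfrkb, Tmem45b, Barx2, Arhgap32, Kcnj5, Kcnj1, Fli1 and Ets1, 7 were measured as loci. Ets1 was left out because loci that overlap the viewpoint window were not measured. Of these 7, 5 were tested and all 5 were higher in ES cells, where 52.2% of all tested loci of the chromosome were called in that direction. Barx2 and Arhgap32 passed the filter through the ES libraries. After median centring 2 of them were called, Kcnj5 and Kcnj1, and without a filter 3 of the 7, Barx2, Kcnj5 and Kcnj1. Fli1, an ETS-family gene between the interval and the viewpoint, held 2.81 and 2.80 in the ES libraries and 1.98 and 2.35 in the MEF libraries (log2 difference 0.27, limma adjusted p = 0.0283), a difference that turned to -0.043 after median centring (adjusted p = 0.649). Beyond the far edge, contact was low in both groups, with 0.281 and 0.359 against 0.235 and 0.321 at Nfrkb, a chromatin-remodelling subunit gene, and 0.326 and 0.396 against 0.0677 and 0.123 at Tmem45b, a transmembrane protein gene, neither of them tested.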

How the data were processed

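Per the labels' protocols, DpnII cut the fixed chromatin before a first ligation and Csp6I before a second. Per the submitters' processing notes, Bowtie 1.0.0, edgeR and mm10 were used, with no role given. The deposited values are named CPM by the authors. Every value was a whole multiple of 1 step per library (100% of values, tolerance 0.01 count), so they were read as counts per 1000 of a library total, a scale worked out from the values. Listed windows have counts in at least 3 of 4 libraries. The counting of windows and any removal of duplicates are not given in the sources used here.

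Windows, gene loci (10 kb on each side), 100 kb tiles and, added later, transcription starts with a mean of at least 0.5 entered limma 3.58.1 (R 4.3.3; lmFit, eBayes with trend) as log2(value + 1). Tests were two-sided, adjusted by Benjamini-Hochberg over all tested features of the table, with a threshold of 0.05. Log2 differences are ES minus MEF on that scale, which understates changes of low values. Recovered counts were tested with edgeR 4.0.16. The procedure was also run on simulated windows drawn independently of each other. The windows of these data overlap, so that run does not give their error rate. Figures used matplotlib 3.10.9 in Python 3.11.15. Genes came from RefSeq (GRCm38.p6). Replicate pairs differed by more than sampling noise (chi-square 5969 on 719 degrees of freedom for ES, 2417 on 343 for MEF).

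All genes of the interval were to be accounted for, with called windows within 20 kb merged into regions, each named at its smallest p, and group maxima within 30 kb on each side. Members, gene lists and tests were chosen with earlier results of these data known. Alternatives were another pseudocount, filters, scalings, tools, thinning, feature definitions and leaving out each library. Thinning was 1 random draw, and how far thinned counts of calls and p-values vary between draws was not tested.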

Additional observations from a re-analysis of the deposited data

How the results depend on the processing

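The named loci, tiles and region peak windows of the interval kept their direction under the alternatives in which they were tested. Fli1, outside it, reversed to -0.043 with median-centred values. The count of members called higher in ES cells (129) was 85 after thinning to the shallowest library, in 1 random draw. It was 12 of windows that do not overlap. Under the other settings with all libraries it lay between 87 (quantile normalization) and 135 (a filter of at least 1 in 2 libraries). Leaving out 1 library gave 0 to 184 with limma, and 10 and 11 with edgeR without ES replicate 1 and ES replicate 2. The count higher in MEFs was 0 to 16 when 1 library was left out. Gene loci higher in ES cells (9) numbered 5 with the filter of at least 1 in 2 libraries, 4 with median-centred values and 5 at the higher-coordinate gene end, and 8 to 9 when 1 library was left out. Tiles higher in ES cells (4) numbered 2 with that filter, 2 with quantile normalization and 8 of 50 kb tiles, and 3 to 4 when 1 library was left out. The cause of these changes was not tested. Over the whole table limma called 156 windows for ES cells and 242 for MEFs. These splits turned to more ES calls, 141 to 118, under quantile normalization, and became 126 to 303 under median centring, and 104 to 228 when totals left out 50 kb around the viewpoint. The median over all tested loci was 0.27, and -0.04 with median-centred values, against 0.65 and 0.33 over the loci of the interval. The difference in the share of the library total was 3.86 percentage points, 4.69 without 50 kb around the viewpoint, and 3.47 to 4.25 when 1 library was left out. The log2 ratio differences ranged from 1.82 to 2.03 (mirrored interval) and from 1.5 to 1.70 (windows nearer the viewpoint) when 1 library was left out. Same-numbered replicates did not deviate together window by window (r = -0.01 over all tested windows). Counting noise in the shallow MEF libraries enters these differences, so this cannot show whether libraries were made in pairs. With the replicate block the counts were 124 windows, 8 loci (Gm31497 lost, adjusted p = 0.0641) and 4 tiles. Depth limits the MEF libraries, where 1 count is worth 0.0734 and 0.0337 counts per 1000.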
